A study of Mus musculus with 8 samples.

Results

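RNA-seq counts of 10 genes were examined in tumor-infiltrating CD8 T cells with and without the histone demethylase LSD1. The genes were the ligand *Tgfb1*, the receptors *Tgfbr1*, *Tgfbr2* and *Tgfbr3*, the Smad genes *Smad2*, *Smad3*, *Smad4* and *Smad7*, the Smad corepressor *Skil* and the co-receptor *Cd109*. They were taken by symbol from a count table of 55335 genes. All 10 passed the filter on low counts, as did 15378 genes in all. The set was chosen by pathway role and, for *Cd109*, by the fold change between the same WT and KO samples, with results of these samples known. Its values are therefore a description without p-values.

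Tumor-infiltrating lymphocytes (TILs) that were CD8+, CD44+ and PD-1+ had been sorted from tumors of MC38, a colon carcinoma line implanted in C57BL/6 mice. There were 4 WT samples from Lsd1f/f mice, which carry LSD1 alleles flanked by loxP sites but no Cre, and 4 KO samples from Cd4-Cre+Lsd1f/f mice. A WT sample held the pooled cells of 2 mice and a KO sample those of 1, so the pooling differed with genotype. Mice were littermates 6 to 10 weeks old, and 10000 to 20000 cells were sorted per sample. Tumors were taken on day 18 according to the protocol and after 14 days according to the design text. Cd4-Cre acts in developing T cells, so the deletion is directed to CD4 as well as CD8 T cells. Columns S1 to S4 of the table are WT and S5 to S8 KO by the sample names in the study's principal component plot.

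TGF-beta is secreted in a latent complex and must be released before it can bind. The free ligand is bound by the type II receptor TGFBR2, which then phosphorylates the type I receptor TGFBR1. The activated receptor phosphorylates SMAD2 and SMAD3, which enter the nucleus with SMAD4. SMAD7 and SKIL (SnoN) are feedback inhibitors that the pathway itself induces. TGFBR3 (betaglycan) presents ligand to TGFBR2 or, when shed, holds it away, and CD109 is a GPI-anchored protein known to bind TGF-beta and dampen receptor signalling. In CD8 T cells, TGF-beta is known to restrain cytotoxic differentiation and to induce the integrin chain CD103, encoded by *Itgae*.

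The libraries held 11657807 to 30295406 counts. Levels are in CPM, counts scaled to library size with TMM factors. By library size alone, without these factors, 3 counts corresponded to 0.099 to 0.257 CPM. S8 was the deepest. *Kdm1a*, which encodes LSD1, was at 42.7 to 47.2 CPM in the WT samples and at 25.2 to 34.8 CPM in the KO samples. All KO samples lay below all WT samples, but the log2 fold change of -0.55 (SE 0.14, edgeR adjusted p = 0.0163) did not meet the call. The genes of the T cell gate were high in every sample, with a summed level of 5611 to 6397 CPM. *Ptprc* was at 1835 ± 125 CPM in WT and 1769 ± 149 CPM in KO, and *Cd8a* at 1340 ± 93.3 and 1109 ± 107 CPM. *Cd44*, used for the sort, rose from 433 ± 39.7 to 785 ± 136 CPM (log2 fold change 0.86, SE 0.12, edgeR adjusted p = 0.000107), but did not pass a test against 1.5-fold itself (glmTreat adjusted p = 0.095). Markers of macrophages and other myeloid cells were present at low level and differed between the groups. Their 17 genes summed to 280 to 756 CPM in WT, highest in S3, and to 62.2 to 104 CPM in KO. Of the 16 tested, 10 were called lower, beside 1.99% of all genes tested. *Cd4* was at 1.86 to 6.87 CPM in WT and 7.26 to 26.2 CPM in KO, and *Foxp3* at 0.408 to 2.47 and 1.34 to 4.07 CPM. The stromal genes *Lum* and *Pdgfrb* and the epithelial keratins *Krt8* and *Krt19* were at 0 in all 8 samples. The other stromal genes reached at most 3.59 CPM (*Col3a1* in WT), and of the epithelial list *Cdh1* was at 13.4 to 28.9 CPM in WT and 21 to 31.7 CPM in KO. Of the endothelial list *Pecam1* rose from 22.9 ± 3.06 to 63.7 ± 9.18 CPM (log2 fold change 1.48, SE 0.15, edgeR adjusted p = 5.23e-06), while *Cdh5* and *Kdr* reached at most 0.523 CPM. The B cell gene *Cd79a* was at 0.0816 to 0.872 CPM in WT and 1.3 to 3.84 CPM in KO (adjusted p = 0.0773). The platelet list summed to at most 10.8 CPM. The part of these other cells in the results below was not tested.

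RefSeq promoter sequences of build GRCm38.p6 were at hand for 4 of the 10 genes, *Tgfb1*, *Tgfbr1*, *Tgfbr2* and *Smad3*. The 250 bases before the start are shown 5′ to 3′ for a gene that was higher in KO (*Tgfb1*, chr7:25686752-25687001, plus strand), a gene whose KO samples lay within the WT range (*Tgfbr2*, chr9:116175364-116175613, minus strand) and a gene whose KO samples were split (*Smad3*, chr9:63757995-63758244, minus strand). Capitals mark the Smad-binding letters CAGAC, searched on both strands.
Tgfb1: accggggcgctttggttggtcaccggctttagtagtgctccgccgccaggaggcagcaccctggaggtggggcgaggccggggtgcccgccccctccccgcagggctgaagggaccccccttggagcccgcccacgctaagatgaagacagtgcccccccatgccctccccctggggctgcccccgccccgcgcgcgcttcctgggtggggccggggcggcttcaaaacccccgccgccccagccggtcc
Tgfbr2: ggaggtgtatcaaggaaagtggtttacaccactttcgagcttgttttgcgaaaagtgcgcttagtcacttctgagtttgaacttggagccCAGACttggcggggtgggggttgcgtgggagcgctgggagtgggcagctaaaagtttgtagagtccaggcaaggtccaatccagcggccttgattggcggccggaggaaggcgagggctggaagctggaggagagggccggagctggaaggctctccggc
Smad3: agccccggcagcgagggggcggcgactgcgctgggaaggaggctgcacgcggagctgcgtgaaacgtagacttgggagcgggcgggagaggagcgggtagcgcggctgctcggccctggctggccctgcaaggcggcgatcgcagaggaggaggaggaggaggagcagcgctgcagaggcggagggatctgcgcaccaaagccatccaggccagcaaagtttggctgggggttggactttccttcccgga
CAGAC was found 1 time before *Tgfbr2*, starting 160 bases before the start, and 0 times before *Tgfb1* and *Smad3*. *Tgfbr1* has 2 annotated starts, not shown, with CAGAC 203 bases before 1 of them and not before the other. Of all 32851 promoter windows of this length, 42.2% held it on either strand. The core CTTTGA of sites of TCF factors, searched on both strands, was in 13.8% of windows and in none of those of the 4 genes. These matches describe letters only. *Cd109*, *Tgfbr3*, *Skil*, *Smad2*, *Smad4* and *Smad7* had no entry.

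The co-receptor genes *Cd109* and *Tgfbr3* were far higher in KO TILs, by 55.9-fold and 11.4-fold in the fit. *Tgfb1* and *Skil* were higher by 1.38-fold and 1.31-fold, without overlap of the groups. The signalling receptors *Tgfbr1* and *Tgfbr2*, *Smad2*, *Smad4* and *Smad7* differed by less than 1.5-fold, with overlapping samples. *Smad3* was low in 3 KO samples and high in S8. A call needed a fold change of more than 1.5 and an edgeR adjusted p under 0.01. By this rule 2 of the 10 genes were called, both higher, against 4.9% of all genes tested (2.91% higher and 1.99% lower). In 4 of the 10 every KO sample lay above every WT sample, against 8.99% of all genes. In 8.28% of all genes every KO sample lay below every WT sample, which makes 17.3% without overlap in either direction. The choice of genes used this contrast, so nothing is read from these shares. The median log2 fold change of the 10 genes was 0.13, and that of all genes tested was -0.01.

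**Figure D1:**
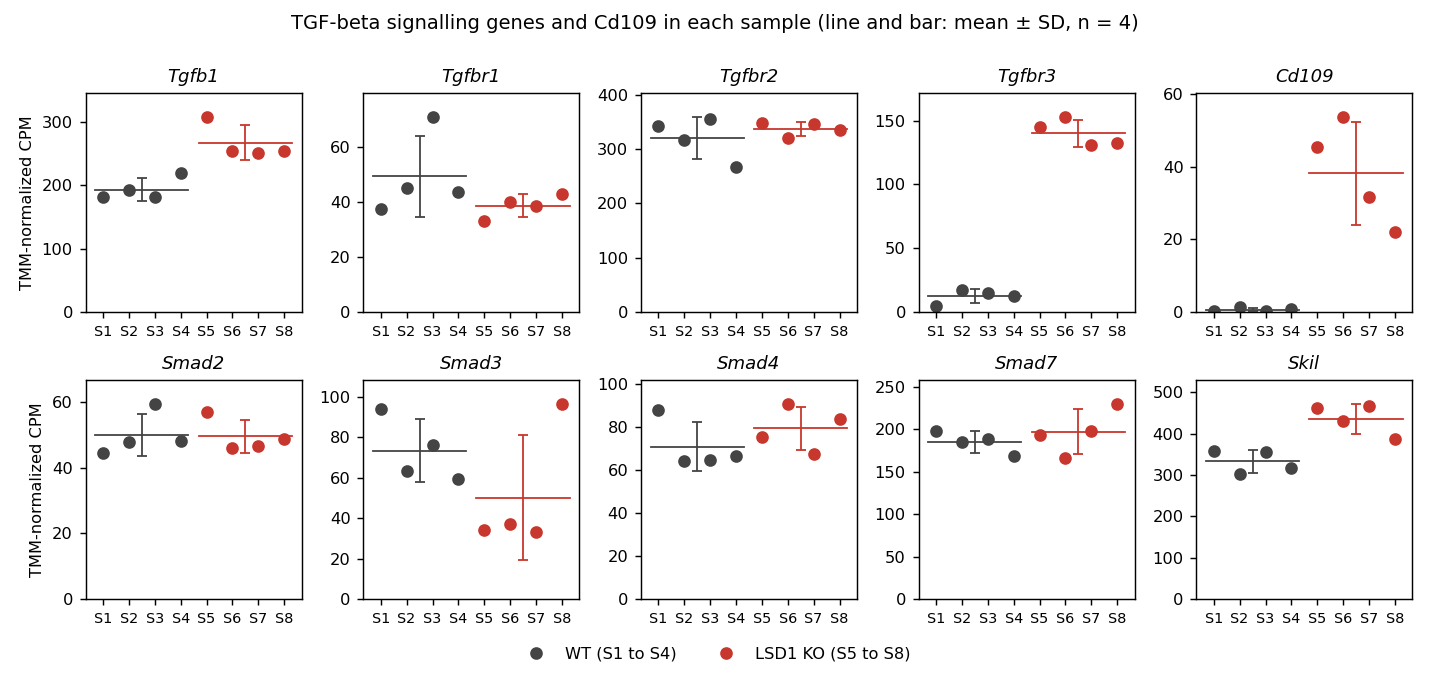
Normalized CPM (linear axes from 0) of the 10 genes in each of the 4 WT samples (grey, S1 to S4) and 4 KO samples (red, S5 to S8), with the mean and SD of each group. *Tgfbr3* lies at 4.77 to 17.2 CPM in WT and 131 to 153 CPM in KO, *Cd109* at up to 1.25 CPM in WT and 21.9 to 53.7 CPM in KO, and the *Smad3* panel shows S8 apart from the other KO samples.

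*Cd109* (ENSMUSG00000046186.8, chromosome 9, 78615546 to 78716253, GRCm38, plus strand) was close to absent from WT TILs. WT samples S1 to S4 held 5, 23, 3 and 10 raw counts, and KO samples S5 to S8 held 690, 664, 379 and 624. After normalization these were 0.291, 1.25, 0.245 and 0.825 CPM in WT and 45.3, 53.7, 31.6 and 21.9 CPM in KO. The groups did not overlap, and the lowest KO sample, S8, was still well above the highest WT sample, S2. The means were 0.653 ± 0.479 and 38.1 ± 14.1 CPM (SD, n = 4 each). The log2 fold change was 5.80 (SE 0.41, 95% interval 4.94 to 6.67) and ranged from 5.53 to 6.41 when samples were left out in turn. The size of this ratio rests on 41 WT counts in all, against 2357 in KO. An antisense gene that overlaps it, *4921509A06Rik*, had 0 counts in all samples.

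CD109 is a member of the alpha-2-macroglobulin and complement family, and its relatives were at 0 or low in these cells. The list held 10 such genes, of which 9 were in the table. *A2m*, *Pzp*, *Mug1* and *Mug2*, the secreted protease inhibitors of the family, were at 0 in all 8 samples. The complement genes *C3*, *C4a* and *C4b* were tested and were not called (edgeR adjusted p = 0.336, 0.525 and 0.2). *C3* was at 9.08 ± 4.44 CPM in WT and 5.5 ± 3.52 CPM in KO. *C4a* and *C4b* are near-identical copies, so reads may be split between them.

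*Tgfbr3* (ENSMUSG00000029287.14, chromosome 5, 107106570 to 107289629, minus strand) was detected in WT and much higher in KO. It was at 4.77, 17.2, 14.6 and 12.9 CPM in WT and at 145, 153, 131 and 132 CPM in KO. The KO samples were tightly grouped, while S1 was the lowest WT sample. The means were 12.4 ± 5.36 and 140 ± 10.5 CPM (SD, n = 4 each), a log2 fold change of 3.51 (SE 0.26, 95% interval 2.97 to 4.05). Leaving out samples in turn gave 3.23 to 3.73. *Gm43422*, a transcript of uncertain status on the same strand, shares 297 bases or 4.54% of the *Tgfbr3* exons and held 10.8% as many counts. How reads in the shared bases were counted is not given in the sources used here.

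The ligand gene *Tgfb1* (chromosome 7, 25687002 to 25705077) was at 181, 192, 182 and 219 CPM in WT and 308, 254, 251 and 254 CPM in KO. No KO sample reached down to the WT samples, and S5 was the highest. The means of 193 ± 17.7 and 267 ± 27.2 CPM gave a log2 fold change of 0.47 (SE 0.10, 95% interval 0.25 to 0.68). This is 1.38-fold and below the 1.5-fold needed for a call. The value was 0.39 to 0.53 when samples were left out in turn.

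The receptor kinase genes had overlapping groups. *Tgfbr2* (chromosome 9, 116084293 to 116175360), the ligand-binding kinase, was at 342, 317, 356 and 268 CPM in WT and 348, 320, 346 and 335 CPM in KO. The 4 KO samples all lay within the WT range, and the fold change was 1.05 with a 95% interval of 0.909 to 1.22. *Tgfbr1* (chromosome 4, 47353222 to 47414931), which transmits the signal to the Smads, was at 37.5, 45.3, 71.2 and 43.7 CPM in WT and 33.1, 40.2, 38.8 and 42.9 CPM in KO. S3 stood above the other WT samples, and it was also the sample with the highest myeloid marker sum. The log2 fold change of *Tgfbr1* was -0.35 (SE 0.18, 95% interval -0.73 to 0.03) with S3 and -0.12 (SE 0.15) without it.

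The KO samples were far apart in *Smad3*. *Smad3* (chromosome 9, 63646767 to 63757994), a receptor-activated Smad, was at 93.9, 63.5, 76.5 and 59.4 CPM in WT and 34.3, 36.9, 33 and 96.7 CPM in KO. S5, S6 and S7 were below all WT samples and S8 was above them all. The log2 fold change was -0.53 (SE 0.28, 95% interval -1.12 to 0.05) over all samples and -1.08 (SE 0.17) without S8, where the gene met the call for lower. S8 differed from the other KO samples in other genes too, chosen here after their values were seen. *Pdcd1*, which encodes PD-1, was at 306 CPM in S8 and 459 to 602 CPM in the other KO samples, and *Eomes*, a T-box factor, was at 52.5 CPM against 16.3 to 31.8 CPM. S8 was also the deepest library and the KO sample with the least *Cd109*. The part of these differences in the *Smad3* value was not tested.

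*Smad2*, the other receptor-activated Smad of the pathway, was at 44.6, 48, 59.6 and 48.3 CPM in WT and 57.1, 46.1, 46.6 and 48.7 CPM in KO. *Smad4*, the shared partner, was at 88, 64.1, 64.9 and 66.4 CPM in WT and 75.2, 90.9, 67.7 and 84 CPM in KO. The groups overlapped for both, with log2 fold changes of -0.01 (95% interval -0.29 to 0.27) for *Smad2* and 0.16 (-0.11 to 0.44) for *Smad4*. *Smad2*, *Smad4* and the inhibitory *Smad7* lie on chromosome 18, and *Tgfbr2*, *Smad3* and *Cd109* on chromosome 9. The ratio of *Smad3* to *Smad2* per exon length was 1.95 to 3.33 in WT, 0.952 to 1.27 in S5 to S7 and 3.15 in S8.

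Of the feedback inhibitors, the groups did not overlap in *Skil* and overlapped in *Smad7*. *Skil* (chromosome 3, 31095058 to 31122577) was at 357, 303, 355 and 316 CPM in WT and 461, 430, 466 and 387 CPM in KO. All KO samples were above all WT samples, with a log2 fold change of 0.39 (SE 0.10, 95% interval 0.19 to 0.59), or 1.31-fold, below the fold of a call. *Smad7* was at 198, 185, 189 and 168 CPM in WT and 193, 166, 198 and 230 CPM in KO, a fold change of 1.06 (95% interval 0.907 to 1.24) with overlapping samples. The difference between the 2 genes was not tested.

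Levels of different genes were compared per kb of exon, since longer transcripts give more reads. In WT, *Smad7* (40.9 CPM per kb), *Tgfbr2* (39.2), *Tgfb1* (38.3) and *Skil* (34.3) were highest, and neighbours among these 4 overlapped in range. This order depends on the length used: per kb of the longest transcript, *Tgfb1* was at 75 CPM, *Skil* at 49.5, *Smad7* at 43.3 and *Tgfbr2* at 39.6. *Smad4* (19.1 CPM per kb) and *Smad3* (13.2) followed, then *Tgfbr1* (7.57) and *Smad2* (5.71), whose ranges overlapped. *Tgfbr3* (1.89 CPM per kb) and *Cd109* (0.0947) were the lowest and were each separate from their neighbours. In KO, *Tgfb1* was highest at 52.9 CPM per kb and did not overlap with *Skil* (45), the next gene. *Tgfbr3* reached 21.5 CPM per kb, beside *Smad4* at 21.4. *Cd109* reached 5.53 CPM per kb and overlapped in range with *Smad2* (5.65). The level of *Tgfbr2* was 14.7 to 57.4 times that of *Tgfbr3* in WT samples and 1.67 to 2.11 times in KO samples. In bulk samples, fewer cells that express a gene and less RNA per cell cannot be told apart.

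**Figure D2:**
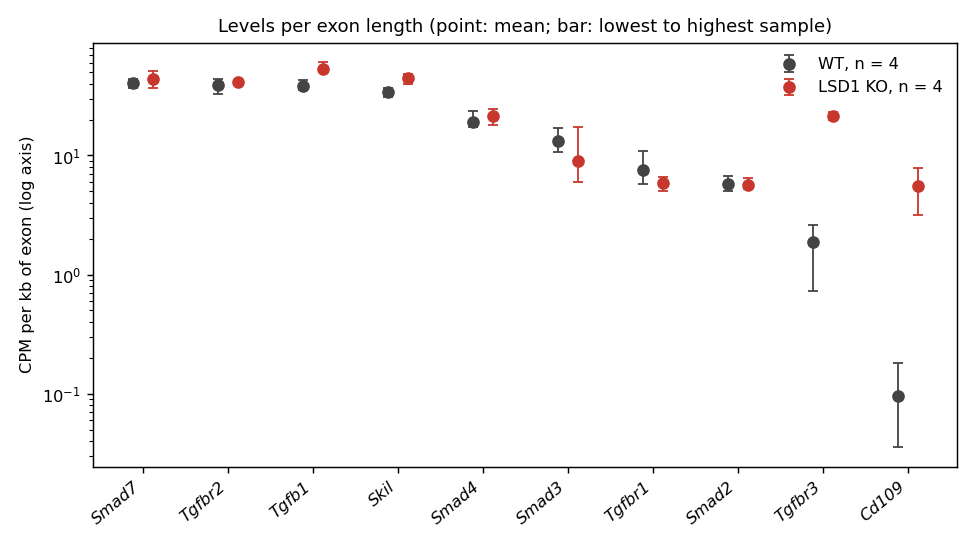
Levels of the 10 genes in CPM per kb of exon on a log axis, ordered by the WT mean. Points are means of 4 samples and bars run from the lowest to the highest sample. *Tgfbr3* is at 1.89 in WT and 21.5 in KO and *Cd109* at 0.0947 and 5.53 CPM per kb, while the other 8 genes lie within 1.5-fold of their WT level.

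The rest of the pathway was described from 5 lists set by known role (ligands and their release, receptors, Smads, negative regulators, and adaptors and co-activators). Besides the 10 genes these held 52 others, of which 43 were tested. *Ltbp4*, *Bmpr2*, *Tgif1* and *Ep300* were called higher and *Thbs1* lower, 5 of 43 genes, beside 4.9% of all genes. The lists were set with earlier results of these data known, so nothing is read from this share. The median log2 fold change of the 43 was 0.11.

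Among genes of ligand storage and release, *Ltbp4*, a matrix protein that binds latent TGF-beta, rose from 2.94 ± 0.515 to 11.7 ± 3.39 CPM (log2 fold change 1.99, SE 0.32, edgeR adjusted p = 0.000493). *Thbs1*, which encodes thrombospondin, an activator of latent TGF-beta, fell from 22.4 ± 3.07 to 7.28 ± 3.14 CPM (log2 fold change -1.63, SE 0.28, adjusted p = 0.00101). *Thbs1* was highest in S3 (26 CPM), where the myeloid sum of 756 CPM was highest too. All WT samples had a higher myeloid sum than any KO sample, and the part of myeloid cells in this difference was not tested. *Furin*, the protease that cleaves pro-TGF-beta, was at 113 ± 4.65 and 158 ± 15.8 CPM (log2 fold change 0.48, SE 0.10, adjusted p = 0.00426), with no overlap but below 1.5-fold. *Itgav*, the integrin chain that releases latent TGF-beta, was at 355 ± 26.8 and 310 ± 79.5 CPM (adjusted p = 0.457). *Tgfb3* was low in both groups, at 1.06 to 5 CPM in WT and 0 to 0.197 CPM in KO, without overlap. Its log2 fold change of -4.03 (SE 0.96), from 155 counts in WT and 10 in KO, missed the threshold (edgeR adjusted p = 0.0107). It was called lower in 5 of the 17 other fits. *Tgfb2* was too low to be tested. Per kb of exon, the level of *Tgfb1* was 38.3 CPM in WT and 52.9 in KO, beside 0.708 and 0.0399 for *Tgfb3*.

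Among receptors, *Bmpr2*, a type II receptor for bone morphogenetic proteins, rose in all KO samples. It was at 36.3, 35.6, 39.8 and 38.5 CPM in WT and 110, 72.5, 92.4 and 78 CPM in KO (log2 fold change 1.23, SE 0.14, edgeR adjusted p = 1.47e-05). Of the 12 tested receptors and co-receptors, 3 were called, all higher (2.91% of all genes were called higher), and these were *Bmpr2*, *Tgfbr3* and *Cd109*. *Cd109* was chosen by its fold change, and *Tgfbr3* is also among the 10 genes chosen with results of these samples known. Nothing is therefore read from this count. The activin receptor gene *Acvr1b* was at 9.06 ± 1.75 and 10.5 ± 2.82 CPM (adjusted p = 0.703). The decoy receptor gene *Bambi* was at 4.62 to 10.1 CPM in WT and 0 to 2.6 CPM in KO and did not meet the call (log2 fold change -2.65, SE 0.76, adjusted p = 0.0329). *Smad1* and *Smad5*, the BMP-responsive Smads, did not pass (adjusted p = 0.337 and 0.769).

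Of 14 negative regulators, all were tested and 1 was called, beside 4.9% of all genes. *Tgif1*, a homeodomain corepressor of Smads, rose from 125 ± 8.86 to 207 ± 8.89 CPM (log2 fold change 0.73, SE 0.09, edgeR adjusted p = 6.87e-05). *Ldlrad4* was at 27.2 ± 6.58 and 44.2 ± 2.62 CPM without overlap and missed the threshold (log2 fold change 0.71, SE 0.17, edgeR adjusted p = 0.0108). It was called in 5 of the 17 other fits. *Tgif2* was at 32 ± 8.79 and 17.8 ± 5.14 CPM with overlap (log2 fold change -0.83, SE 0.23, edgeR adjusted p = 0.0252). It was called in 4 of the 17 other fits. *Ski*, the relative of *Skil*, was at 156 ± 16.4 and 175 ± 28.5 CPM (adjusted p = 0.439). *Fkbp1a*, which binds and quiets the type I receptor, was at 136 ± 29.1 and 152 ± 18.5 CPM (adjusted p = 0.545). Among adaptors and co-activators, *Ep300*, the acetyltransferase that Smads recruit, rose from 267 ± 19.2 to 418 ± 7.81 CPM (log2 fold change 0.65, SE 0.09, adjusted p = 0.00011). Its paralog *Crebbp* was at 256 ± 24.8 and 319 ± 14.8 CPM without overlap (log2 fold change 0.32, adjusted p = 0.0396). *Tab2* and *Sp1* did not pass (adjusted p = 0.311 and 0.544). *Tgif1* and *Ep300* did not pass a test against the 1.5-fold threshold itself (edgeR glmTreat adjusted p = 0.337 and 0.832).

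**Figure D3:**
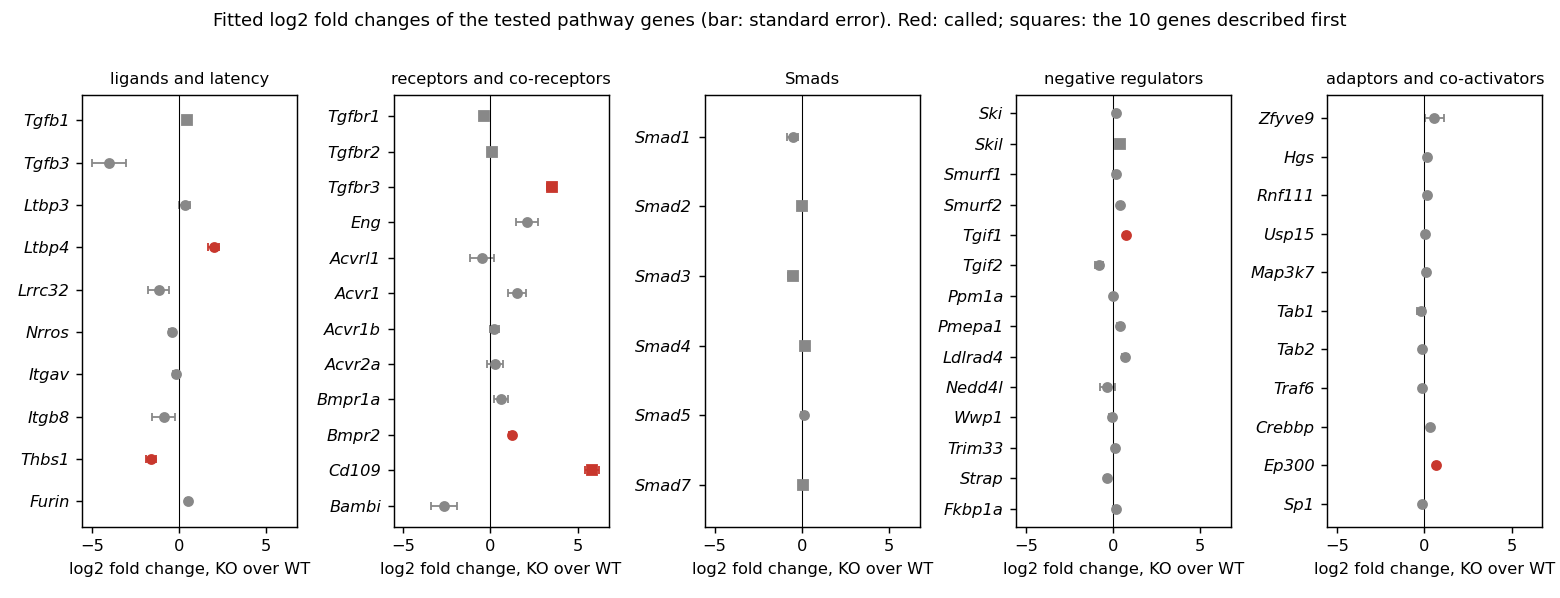
Fitted log2 fold change, KO over WT, of every tested gene of the 5 lists by role, with standard errors. Squares are the 10 genes described first, circles the others, and red marks genes that were called. *Cd109* (5.80) and *Tgfbr3* (3.51) lie furthest to the right, and all Smads are within 1 unit of 0.

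Genes known to respond to TGF-beta in T cells were then examined. *Itgae*, the gene of CD103, was at 12.8, 8.12, 16.6 and 4.7 CPM in WT and 79.9, 103, 73.9 and 81.4 CPM in KO. The groups were far apart, with a log2 fold change of 3.00 (SE 0.27, edgeR adjusted p = 1.19e-06). Besides *Skil* and *Smad7*, the list of TGF-beta-induced genes held 8 genes, all tested. *Itgae* and *Tgif1* were called higher and none lower, beside 2.91% and 1.99% of all genes tested. The median log2 fold change was 0.55, and that of all genes tested was -0.01. *Id1* was at 3.38 to 5.3 CPM in WT and 0.751 to 2.76 CPM in KO, without overlap, and was not called (edgeR adjusted p = 0.304). Of the 8 genes, 6 had a log2 fold change above 0. This list too was set with earlier results of these data known, so nothing is read from these counts.

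Of 9 genes that TGF-beta is known to repress in cytotoxic T cells, edgeR called 0 and DESeq2 called 0. Of all genes tested, edgeR called 4.9%. At a looser threshold, an unadjusted edgeR p under 0.05, 4 of the 9 passed, and the share of all genes at that threshold is not given here. *Gzmb*, which encodes granzyme B, was at 1267 ± 213 and 1377 ± 309 CPM (adjusted p = 0.695). *Prf1*, which encodes perforin, was at 846 ± 181 and 947 ± 171 CPM (adjusted p = 0.553). *Ifng* was at 330 ± 83.1 and 462 ± 54.4 CPM (log2 fold change 0.49, SE 0.14, adjusted p = 0.0331), with overlapping samples, and was called without S4 (adjusted p = 0.00089). *Eomes*, a member of this list, had the opposite sign, at 54.9 ± 7.16 and 30 ± 16.4 CPM (log2 fold change -0.86, SE 0.27, adjusted p = 0.0477), and was called lower without S8 (edgeR adjusted p = 0.000708) and when genes with low counts were not filtered out. The median log2 fold change of the list was 0.16.

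**Figure D4:**
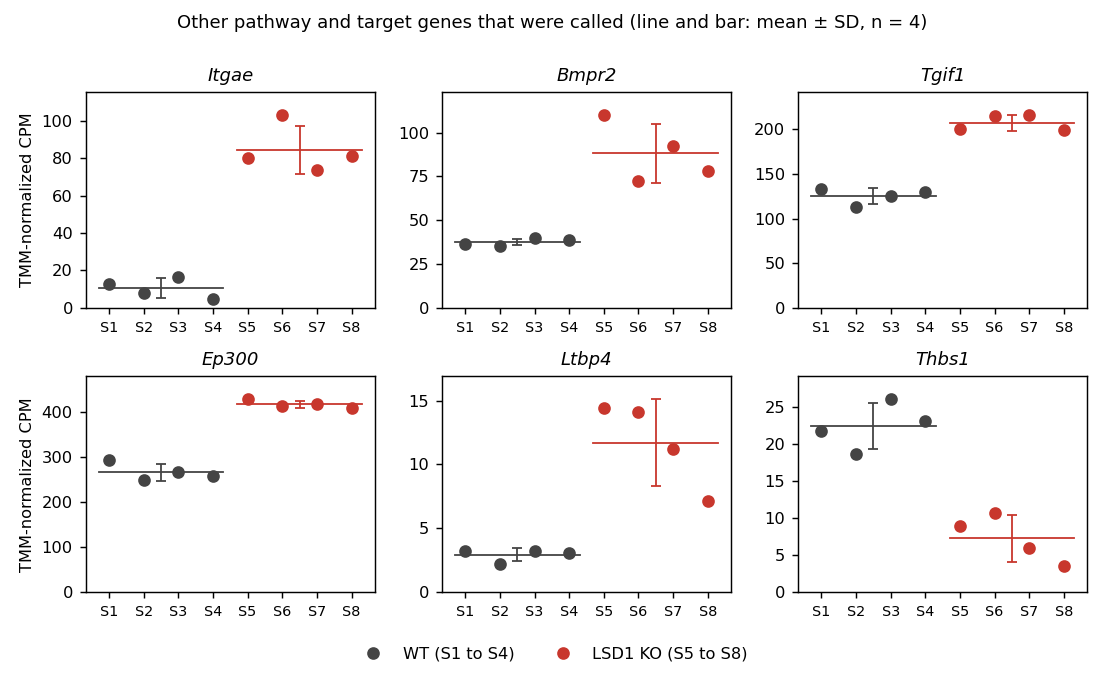
Normalized CPM (linear axes from 0) in each sample of the 5 other pathway genes that were called and of *Itgae*, with the mean and SD of each group (n = 4). In every panel the WT and KO samples do not overlap, with *Thbs1* lower and the others higher in KO.

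The pattern of *Cd109* over the 8 samples was closest, by Pearson correlation of log2 CPM among 15377 other genes, to *Gm13547* (r = 0.996), *Pacsin1* (0.987), *Nsg2* (0.986), *Ctnna1* (0.986) and *Actn1* (0.985). The 8 samples share the split into groups, which sets most of r, and 13 genes had an r above 0.98. *Pacsin1*, a regulator of endocytosis, was at 12.8 to 17.3 CPM in WT and, in S5 to S8, at 106, 108, 93.7 and 70.5 CPM. As for *Cd109*, S6 was the highest and S8 the lowest KO sample. *Nsg2*, a neuronal vesicle protein gene, was at 8.89 to 14.1 CPM in WT and 76.8 to 86.2 CPM in KO. *Ctnna1* and *Actn1*, of the adhesion and actin skeleton, were at 58.4 to 73.2 and 38.2 to 46.4 CPM in WT and at 116 to 136 and 110 to 117 CPM in KO. *Gm13547*, a predicted gene, was at 0.408 to 0.763 CPM in WT and 1.83 to 2.67 CPM in KO. *Cd109* differed from all 5 in how near to 0 it was in WT relative to KO, with a ratio of means of 58.4 against 1.86 to 6.9. *Cd109* was chosen by its fold change between these groups, so nothing is read from this difference.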

How the data were processed

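For the table the authors deposited, STAR alignments to GRCm38 (mm10) were turned into raw featureCounts counts per gene, unnormalized and unpooled (tools and build also as in the submitters' processing notes). Their own DESeq2 test with a GC correction was not used. Whether counting used strand is not given in the sources used here. The study's principal component plot names S1 to S4 as WT and S5 to S8 as KO, and the columns were grouped by these names.

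Names and exon lengths came from GENCODE M21 (55154 of 55335 IDs matched without version). The test was edgeR 4.0.16 (R 4.3.3), quasi-likelihood, after filterByExpr and TMM scaling, with no covariate. P-values were adjusted (Benjamini-Hochberg) over 15378 genes and calls made at 1.5-fold and adjusted p 0.01. Standard errors come from the log2 fold change and the F statistic. The fit was tested on simulated data. P-values measure the spread between these samples, which came from separate mice. A WT sample pooled 2 mice and a KO sample held 1, so the spread between mice enters the groups unequally. Floors cover counting error only.

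The 10 genes and all lists were chosen with earlier results of these data known. Named were the 10 genes, called pathway genes, the 3 most abundant uncalled genes of a list, the 5 genes most like *Cd109*, *Kdm1a*, and marker genes by level. *Tgfb2*, *Tgfb3*, *Bambi*, *Eomes*, *Id1*, *Smad1*, *Smad5*, *Cd4*, *Foxp3*, *Cd79a*, *Col3a1*, *Cdh5*, *Kdr* and genes at 0 were added after their values were seen. Alternatives were other scalings, filters and thresholds, DESeq2 1.42.0, edgeR's likelihood ratio and glmTreat tests, GC offsets (mgcv 1.9.3) and leaving out each sample. Some items are not reported here.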

Additional observations from a re-analysis of the deposited data

Results flagged for a closer look

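In groups of 4 samples, a gap to the nearest sample above Dixon's critical share of the group's range marks a sample that stands apart, which chance gives in about 1 of 20 groups. Of 34 groups of the named pathway genes, 4 passed, where 1.7 would be expected by chance. *Tgfb1* had S5 as the highest KO sample, with a gap of 0.939 of the range. *Smad3* had S8 as the highest KO sample, with 0.895, and this sample decides whether *Smad3* is called lower. *Smad4* had S1 as the highest WT sample, with 0.891. *Ltbp4* had S2 as the lowest WT sample, with 0.832.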

How the results depend on the processing

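*Cd109* and *Tgfbr3* were called higher in all 17 other fits. Of 306 values for 17 named genes under other settings, 303 kept their side of the threshold, and 0 called values changed sign. Near 0, *Smad2* (-0.01) changed sign with GC offsets (0.01) and without S3 (0.08), S6 or S7 (0.02 each), and *Tgfbr2* (0.07) without S4 (-0.01). *Tgif1* and *Ep300* lost the call under glmTreat, and *Smad3* gained it without S8, so that 1 of the 10 genes instead of 0 was called lower (0 to 1 over left-out samples). Over all genes, 447 were called higher, but 165 under glmTreat and 695 at an adjusted p of 0.05, and 347 to 452 when samples were left out. For lower calls (306), the count was 531 without a filter, 461 with DESeq2, 481 with the likelihood ratio test, 130 under glmTreat, 551 at an adjusted p of 0.05, and 199 (without S2) to 303 when samples were left out. Of the other pathway genes, 4 were called higher, 2 under glmTreat and 4 to 5 with samples left out. The count called lower was 1, but 2 with library size alone or a CPM filter of 1, 4 without a filter, with the likelihood ratio test or at an adjusted p of 0.05, 3 with DESeq2, and 1 to 3 (without S8) with samples left out. Of the 5 genes most like *Cd109*, 3 were shared with a prior count of 0.5 and 1 with Spearman correlation. With the longest transcript as length, 6 of the 10 genes kept their WT rank. The cause of these shifts was not tested. No paired analysis was possible because the columns carry no replicate numbers. Depth limits *Cd109* in WT, where 3 counts are 0.158 to 0.257 CPM by library size alone, without TMM factors.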
